A study of Mus musculus with 20 samples.

Results

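Chromatin of hematopoietic stem cells (HSC) from control mice was described from 5 peak lists of the 20 samples in the series, chosen as all wild-type lists of positions on the genome: 1 ChIP-seq list each for H3K4me3, H3K27ac and MYC, and 2 ATAC-seq lists. The mice were adult animals with floxed Mtor alleles on both chromosomes and no Mx1-Cre transgene (Mx1-Cre-/-;mTORflox/flox), so Mtor was intact, and they had received poly(I:C), an interferon-inducing RNA mimic. HSC were isolated from them by FACS. Each ATAC-seq library was made from 50000 sorted cells, per the labels, and the ChIP-seq libraries from formaldehyde-fixed cells. The labels do not say how many mice were pooled for a library. Each ChIP target had 1 library, so no ChIP value has a replicate check and no test was run.

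H3K4me3 is a histone mark laid down around active and poised gene starts, and H3K27ac marks active starts and active enhancers. MYC is a transcription factor that pairs with MAX, binds the E-box CACGTG and is known for driving ribosome production, metabolism and cell growth. ATAC-seq cuts open chromatin with a transposase, so its peaks show where DNA is accessible. HSC are mostly quiescent cells, and MYC activity is known to accompany their exit from quiescence and their differentiation.

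Positions are on mm10, which is the assembly GRCm38. A gene end is the first or last annotated base of a protein-coding gene with 1 kb on either side, and a peak was at the end when at least 1 bp overlapped. Other annotated starts were not scored as ends, and 8.93% of H3K4me3 peaks lay at such a start and at no gene end. There were 21523 protein-coding genes with 43046 ends on chromosomes 1 to 19 and X. An end was open when it had a peak of either ATAC-seq library, and each gene took the combination of its fullest end. The strand was known for 17274 genes, for which the transcription start and the far end could be told apart. Every peak carries a score that the authors deposited. Its scale is not stated, so it was used only to describe and rank peaks within 1 list. Read depth is unknown for every library. The bracketed range after a share is its 95% confidence interval by the exact Clopper-Pearson method, and it takes in counting error alone.

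Promoters of 7 genes are shown first, because they carry the sequence features that the results return to. Each runs from 250 bases before the transcription start to 50 after it, 5′ to 3′ on the gene's strand, from RefSeq on GRCm38.p6. Capitals mark 1 kind of motif per promoter: CACGTG in Napa, Gtf3c6, Cic and Dnajb9, TATAAA in H2ac21 and TGACGTCA, the cyclic AMP response element, in Ociad1. Other motifs are left in lower case, such as TGACGTCA in Napa and CCGGAAG in Gtf3c6. Napa (chr7:16098330-16098629, plus strand), Gtf3c6 (chr10:40257663-40257962, minus strand) and Cic (chr7:25267449-25267748, plus strand) had peaks of all 4 assays, and their MYC peak lay over the window with the E-box. Mastl (chr2:23155975-23156274, minus strand) also had all 4 assays with MYC over the window, but no CACGTG in it. Dnajb9 (chr12:44210019-44210318, minus strand) had the E-box, H3K4me3 and open chromatin, and neither MYC nor H3K27ac. H2ac21 (chr3:96219635-96219934, plus strand) encodes a replication-dependent histone H2A and had all 4 assays. Ociad1 (chr5:73292544-73292843, plus strand) had H3K4me3, H3K27ac and open chromatin.
Napa: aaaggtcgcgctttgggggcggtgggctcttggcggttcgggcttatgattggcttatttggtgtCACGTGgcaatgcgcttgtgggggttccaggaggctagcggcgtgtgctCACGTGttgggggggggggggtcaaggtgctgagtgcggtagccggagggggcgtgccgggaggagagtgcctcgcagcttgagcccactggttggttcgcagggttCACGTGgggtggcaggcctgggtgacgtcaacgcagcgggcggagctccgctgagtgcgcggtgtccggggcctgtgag
Gtf3c6: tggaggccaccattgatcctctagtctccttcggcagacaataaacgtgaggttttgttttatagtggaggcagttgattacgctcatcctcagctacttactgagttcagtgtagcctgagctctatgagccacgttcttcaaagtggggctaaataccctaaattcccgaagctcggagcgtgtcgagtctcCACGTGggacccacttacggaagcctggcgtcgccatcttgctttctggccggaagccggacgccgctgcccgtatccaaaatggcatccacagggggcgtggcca
Cic: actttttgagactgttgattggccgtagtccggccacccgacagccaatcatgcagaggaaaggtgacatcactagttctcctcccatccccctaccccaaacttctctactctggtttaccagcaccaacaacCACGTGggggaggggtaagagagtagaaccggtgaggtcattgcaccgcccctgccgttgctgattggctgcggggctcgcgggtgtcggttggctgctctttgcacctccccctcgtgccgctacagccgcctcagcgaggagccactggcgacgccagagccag
Mastl: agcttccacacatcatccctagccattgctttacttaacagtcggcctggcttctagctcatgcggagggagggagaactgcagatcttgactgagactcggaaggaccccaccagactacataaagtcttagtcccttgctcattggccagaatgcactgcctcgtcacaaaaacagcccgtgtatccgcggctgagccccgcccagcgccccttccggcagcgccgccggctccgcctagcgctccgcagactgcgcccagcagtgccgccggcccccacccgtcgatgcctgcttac
Dnajb9: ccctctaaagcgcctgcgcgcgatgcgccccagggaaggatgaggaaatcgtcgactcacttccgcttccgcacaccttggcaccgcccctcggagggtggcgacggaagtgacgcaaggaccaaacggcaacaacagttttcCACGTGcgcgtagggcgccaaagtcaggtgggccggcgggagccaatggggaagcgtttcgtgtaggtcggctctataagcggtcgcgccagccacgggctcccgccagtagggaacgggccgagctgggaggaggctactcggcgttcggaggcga
H2ac21: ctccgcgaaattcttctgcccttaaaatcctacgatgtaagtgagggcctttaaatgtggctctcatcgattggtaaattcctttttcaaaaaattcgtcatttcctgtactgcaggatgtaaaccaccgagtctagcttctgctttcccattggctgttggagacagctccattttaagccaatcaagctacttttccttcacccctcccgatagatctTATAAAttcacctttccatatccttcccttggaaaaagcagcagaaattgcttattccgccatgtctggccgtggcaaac
Ociad1: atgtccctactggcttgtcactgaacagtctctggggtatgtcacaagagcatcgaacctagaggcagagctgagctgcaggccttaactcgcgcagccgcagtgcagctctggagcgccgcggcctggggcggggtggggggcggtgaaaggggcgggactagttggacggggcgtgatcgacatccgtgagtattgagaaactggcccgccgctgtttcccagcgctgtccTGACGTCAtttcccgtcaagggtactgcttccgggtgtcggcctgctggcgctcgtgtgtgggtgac
Counting the base before the start as -1, the E-boxes began at -185, -136 and -29 in Napa, -56 in Gtf3c6, -116 in Cic and -107 in Dnajb9. TATAAA began at -30 in H2ac21 and TGACGTCA at -17 in Ociad1. Mastl and Dnajb9 were picked to show MYC without the E-box and the E-box without MYC, and the shares over all promoters are given further on.

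The 5 lists differed in length and in where their peaks lay. H3K4me3 had 15089 peaks with a median width of 2184 bp, H3K27ac had 10078 of 333 bp, MYC had 8774 of 374 bp, ATAC-seq library 1 had 17303 of 590 bp and ATAC-seq library 2 had 66531 of 697 bp. Gene ends held 66.9% of H3K4me3 peaks, 27.9% of H3K27ac peaks, 21.5% of MYC peaks (20.7 to 22.4%), 50.7% of library 1 peaks and 21.9% of library 2 peaks. H3K4me3 was thus the list nearest to genes, while most H3K27ac and MYC peaks were distal. Of the 17303 peaks of ATAC-seq library 1, 98.4% overlapped a peak of library 2, but only 24.9% of library 2 peaks overlapped library 1. The libraries are therefore largely nested, and "open" is set mainly by library 2, so the share open in both is given beside the main combinations.

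In every list, peaks at gene ends were wider and scored higher than distal peaks. The median H3K4me3 score was 371 at gene ends and 132 at distal sites, with median widths of 2550 and 1279 bp. The contrast was also large for ATAC-seq library 2, with median scores of 511 at gene ends and 120 at distal sites. It was small for H3K27ac, at 72.2 and 64.7, and for MYC, at 73.5 and 67.0. Most H3K27ac and MYC peaks had low scores, and 82.5% of H3K27ac peaks and 77.7% of MYC peaks scored under 100, against 17.7% of H3K4me3 peaks.

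Where the strand was known, all assays were found more often at the start than at the far end. H3K4me3 was at 52.3% of starts and 7.04% of far ends, and H3K27ac was at 14.2% and 1.81%. MYC was at 9.58% of starts and 1.82% of far ends, and open chromatin was at 63.3% and 14.9%. Far ends also lie near starts of neighbouring genes, and this overlap was not removed.

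Of the 21523 genes, 11438 had an H3K4me3 peak at an end, which is 53.1%. H3K27ac was at 3149 genes (14.6%) and MYC at 2225 (10.3%). ATAC-seq library 1 had a peak at 9674 genes (44.9%), library 2 at 14304 (66.5%) and either library at 14321 (66.5%). These shares are the background for every group of genes below.

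The 4 assays fell into a few common combinations. H3K4me3 with open chromatin and nothing else was the most frequent, at 7384 genes (34.3%), and 6958 genes (32.3%) had no peak at either end. Open chromatin alone was at 2892 genes (13.4%). H3K4me3 and H3K27ac with open chromatin marked 1840 genes (8.55%), all 4 assays marked 1105 genes (5.13%, 4.84 to 5.44%), and H3K4me3 and MYC with open chromatin marked 854 genes (3.97%). All other combinations were rare: H3K4me3 alone was at 175 genes (0.813%), MYC with open chromatin at 106 (0.492%), H3K27ac with open chromatin at 69 (0.321%), and H3K27ac and MYC with open chromatin at 44 (0.204%). MYC alone was at 40 genes (0.186%) and H3K27ac alone at 37 (0.172%). Combinations of 2 or more ChIP targets without open chromatin were rarest, with H3K4me3 and MYC at 10 genes (0.0465%), H3K4me3 and H3K27ac at 5 (0.0232%), all 3 ChIP targets at 3 (0.0139%) and H3K27ac and MYC at 1 (0.00465%). With only the peaks above each list's median score, 480 genes had all 4 assays. At genes, MYC and H3K27ac were seldom found without both H3K4me3 and open chromatin.

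**Figure D1:**
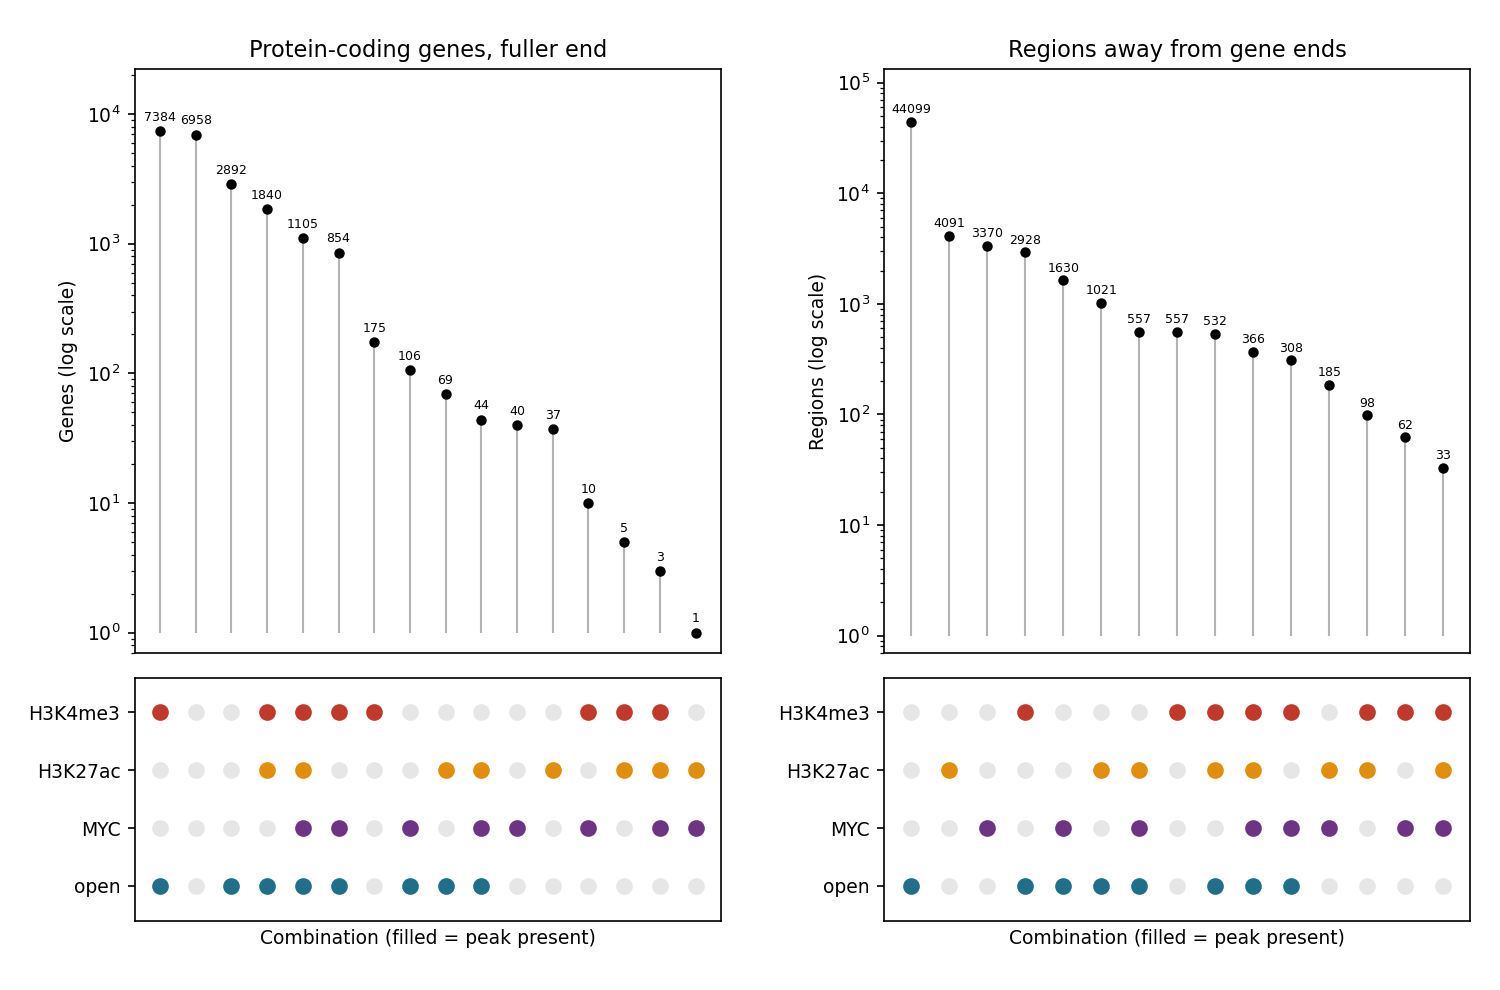
Number of genes (left, by the fuller gene end) and of distal regions (right) with each combination of H3K4me3, H3K27ac, MYC and open chromatin, as points on a log axis, with coloured dots below each point marking the assays present. At genes H3K4me3 with open chromatin led with 7384, while at distal sites open chromatin alone led with 44099 regions.

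Genes with more assays also had stronger H3K4me3 and accessibility. The median H3K4me3 score was 477 with all 4 assays, 468 with H3K27ac and no MYC, 413 with MYC and no H3K27ac, and 347 with open chromatin only. Median H3K4me3 widths followed the same order, at 3276, 3054, 2824 and 2434 bp. The median score of ATAC-seq library 2 was 1000.2 with all 4 assays and 669 with H3K4me3 and open chromatin only. The share open in both ATAC-seq libraries was 94.4%, 89.2%, 87.7% and 73.5% in the same 4 combinations, and 15.0% for open chromatin alone.

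The genes with all 4 assays and the highest mean score rank were Mastl, Yme1l1, Wbp11, Napa and Isca1. Mastl, a kinase that drives mitotic entry, shares its start region with Yme1l1, a mitochondrial inner-membrane protease. The shared peaks scored 654.79 for H3K4me3, 281.29 for H3K27ac, 125.07 for MYC, and 374.7 and 1633.16 in ATAC-seq libraries 1 and 2. Wbp11, a splicing protein, had 578.61 for H3K4me3, 178.15 for H3K27ac, 161.82 for MYC, and 319.21 and 1342.21 for accessibility. Napa, which recycles vesicle-fusion complexes and whose promoter holds 3 E-boxes, had 556.04, 195.34, 169.66, 302.99 and 1524.74 in the same order. Isca1, an iron-sulfur cluster assembly factor, had 564.84, 269.42, 195.27, 283.21 and 1072.52. None of these was at the very top of any list, and each was well placed in all 5.

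The neighbouring combinations had their own leading genes. With H3K4me3, H3K27ac and open chromatin but no MYC, H2-M3, a non-classical MHC class I gene, scored 791.1 for H3K4me3 and 166.5 for H3K27ac, and Cwc22, a splicing factor, scored 829.69 and 181.31. Casp2, an initiator caspase, shared 1 peak set with Tmem139, and Rbis followed. With H3K4me3, MYC and open chromatin but no H3K27ac, Khsrp, an RNA-binding protein in mRNA decay, led with an H3K4me3 score of 637.08, a MYC score of 208.99 and accessibility scores of 587.26 and 2185.86. Eif3f, a subunit of a translation initiation factor, had a MYC score of 177, and Brpf1, a scaffold of histone acetyltransferases, had 133.19. Abtb1 and Podxl2 shared a MYC peak of 163.7. These genes show that a MYC peak at an accessible start did not require a called H3K27ac peak.

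H3K4me3 and open chromatin without H3K27ac or MYC were led by Mrpl17, a mitochondrial ribosomal protein, with an H3K4me3 score of 735.21 and accessibility scores of 532.18 and 1509.13. Dnajb9, an endoplasmic reticulum co-chaperone and the E-box promoter without MYC shown above, had 734.17, 416.88 and 1809.16. Sgo1, which protects centromeric cohesion, Tigd2 and Rbm48 followed. Their H3K4me3 and accessibility scores exceeded the medians of the genes with all 4 assays. They were named for high ranks in these same lists, so this describes them and not the combination. Over the whole combination the medians were lower than with all 4 assays. They were 347 against 477 for H3K4me3 and 669 against 1000.2 for ATAC-seq library 2.

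Open chromatin alone was led by Aph1b, a gamma-secretase subunit, with a library 2 score of 1954.57 and no library 1 peak, and by Rpl22, a ribosomal protein, with 1421.48. Angptl6 and Abhd14a were also among its first 5, each with a library 2 peak only. H3K4me3 alone included Fth1, the ferritin heavy chain, which shares a peak of 874.15 with Best1, and also Astl, Pcp2 and Rpl17. MYC with open chromatin and neither mark included Nfe2, a transcription factor of megakaryocytes and erythroid cells, with a MYC score of 128.61, and Slc25a41, Cpne9, Cbx3 and Dazap1. H3K27ac and MYC with open chromatin were led by Kmt2e, a trithorax-family protein, Cd81, Sypl, Cep70 and Lmna, the gene of nuclear lamins A and C. H3K27ac with open chromatin was led by Tent5b, Zadh2, Cth, Cox7a1 and Sh2d6. MYC alone had Krt80 first, with 273.15, and 2 olfactory receptor genes among its first 5, and H3K27ac alone had Meox1 first, with 161.72.

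MYC peaks were more frequent where H3K27ac was present. Among gene ends with H3K4me3 and open chromatin, MYC was at 1152 of the 3079 ends with H3K27ac, or 37.4% (35.7 to 39.2%), and at 892 of the 8974 ends without it, or 9.94% (9.33 to 10.6%). The ratio of the shares was 3.76. H3K4me3 strength moved with this result, so the ends were divided into 4 equal bins of H3K4me3 score. In the lowest-scoring bin MYC was at 35.6% with H3K27ac and 5.78% without, and in the highest-scoring bin at 39.4% and 13.8%. By H3K4me3 width the shares were 30.3% with H3K27ac and 5.63% without in the narrowest bin, and 42.9% and 15.3% in the widest. The gap was present in every bin, and the share without H3K27ac was lowest where H3K4me3 was weakest or narrowest.

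Accessibility and gene layout gave the same picture. At ends open in both ATAC-seq libraries MYC was at 38.9% with H3K27ac and 11.8% without, and at ends open in library 2 only at 23.3% and 4.66%. At known starts the shares were 38.2% with H3K27ac and 10.1% without, and at far ends 46.2% and 11.6%.

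**Figure D2:**
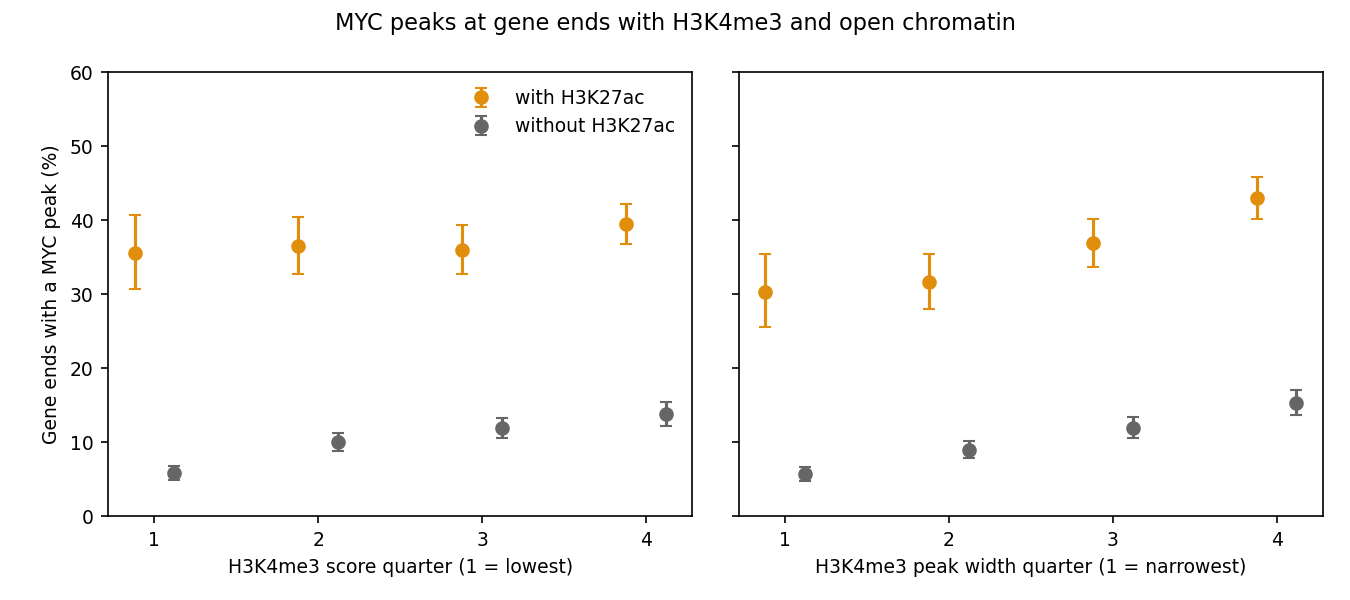
Share of gene ends with a MYC peak (percent, with 95% confidence intervals) among ends with H3K4me3 and open chromatin, for ends with and without H3K27ac, by 4 equal bins of H3K4me3 score and of H3K4me3 width. In all bins the share with H3K27ac, between 30.3% and 42.9%, lay above the share without it, between 5.63% and 15.3%.

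Genes with all 4 assays often faced another gene start. Of starts with all 4 assays, 30.2% (27.3 to 33.3%) had a protein-coding start on the opposite strand within 1 kb, as Mastl and Yme1l1 do. Only starts of genes with a known strand were searched, so these shares can be too low. The share was 24.9% with H3K4me3, H3K27ac and open chromatin, 20.2% with H3K4me3, MYC and open chromatin, 15.3% with H3K4me3 and open chromatin, and 10.4% over all starts. It was 2.46% for open chromatin alone and 0.954% where no peak was found. At starts with no such neighbour found, MYC was at 36.5% with H3K27ac and 9.62% without, so the gap between those shares was also present there.

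Peaks of the assays were centred at different places around the start. Centres were first taken at the 630 starts with all 4 assays and no facing start of known strand. There the median centre of the H3K4me3 peak was 517.5 bp downstream of the start, in the gene body. H3K27ac was centred at a median of -55.75 bp and MYC at -112.75 bp, which is upstream of the start. Only 36.2% of MYC peaks and 44.8% of H3K27ac peaks were centred downstream, against 86.7% of H3K4me3 peaks. ATAC-seq library 1 was centred at -1.5 bp and library 2 at 132 bp. Most MYC peaks were thus centred upstream of the start and most H3K4me3 peaks downstream. H3K27ac centres lay on both sides, with quartiles of -369 and 373 bp. Only centres were compared. H3K4me3 peaks at genes with all 4 assays had a median width of 3276 bp, so they can also cover the start and its upstream side. At the 4980 starts with H3K4me3 and open chromatin only, H3K4me3 was centred at 494 bp and the ATAC-seq peaks at 61 and 219.5 bp.

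**Figure D3:**
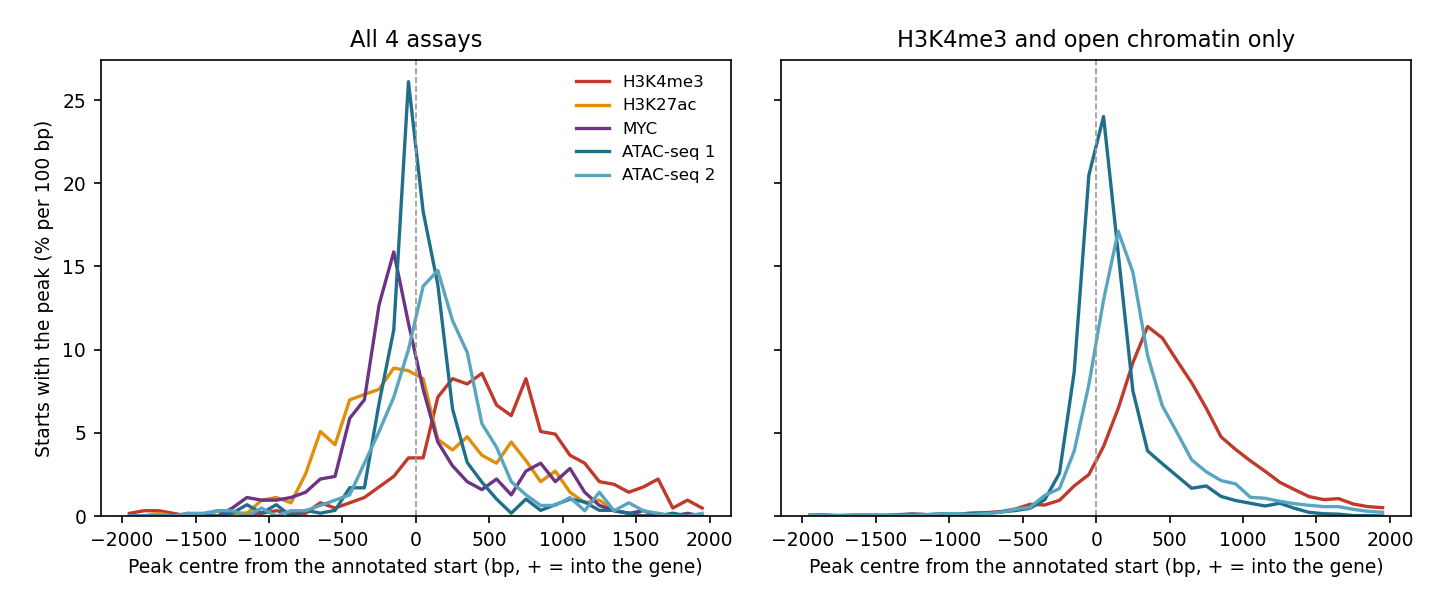
Distribution of peak centres around the transcription start (bp, negative is upstream) at starts with no facing coding start of known strand. Shown are the 630 starts with all 4 assays and the 4980 with H3K4me3 and open chromatin only. With all 4 assays the MYC median was at -112.75 bp and the H3K4me3 median at 517.5 bp.

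Promoter sequence moved with the combinations. The table of RefSeq promoters gave a 300-base window for 15528 of the genes. The ratio of observed to expected CpG, which is high in CpG islands, had a median of 0.842 with all 4 assays, 0.826 with H3K4me3, H3K27ac and open chromatin, 0.806 with H3K4me3, MYC and open chromatin, and 0.772 with H3K4me3 and open chromatin. It was 0.541 for open chromatin alone and 0.177 with no peak, against 0.594 over all promoters.

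The E-box CACGTG, which reads the same on both strands, was in 12.4% of promoters with all 4 assays, 10.8% of those with H3K4me3 and open chromatin, 4.10% of those with no peak and 8.11% of all promoters. Among H3K4me3 and open promoters, MYC was at 177 of 907 with the E-box, or 19.5% (16.98 to 22.2%), and at 17.7% (16.8 to 18.6%) without it, so the intervals overlapped. H3K27ac was at 27.3% with the E-box and 26.99% without. Where all 4 assays were present, the MYC peak overlapped the promoter window in 624 of 843 genes, or 74.0%. The other genes' MYC peak lay elsewhere within the 1 kb on either side, where no sequence was searched.

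Other motifs, none of which contains another, were searched in the same promoters on both strands. TGACGTCA, the element bound by the CREB and ATF family and in 2.41% of all promoters, went with H3K27ac: 136 of 306 promoters with it, or 44.4% (38.8 to 50.2%), had an H3K27ac peak, against 26.4% (25.4 to 27.3%) without it. MYC differed little there, at 20.3% with the motif and 17.8% without. CCGGAAG, the core bound by ETS factors and in 12.2% of all promoters, had H3K27ac at 34.0% (31.7 to 36.3%) with it and 25.3% (24.2 to 26.3%) without it. With that motif MYC was at 20.2%, and without it at 17.3%. GGGCGG, the GC box and in 47.4% of all promoters, went the other way, with H3K27ac at 25.8% with it and 29.8% without, and MYC at 16.8% with it and 20.2% without. TATAAA, in 13.7% of all promoters, had MYC at 24.5% with it and 17.4% without. With histone genes left out those shares were 22.3% and 17.2%. The intervals of the TGACGTCA shares for H3K27ac did not overlap. With the promoters in 4 equal bins by CpG ratio, H3K27ac was at 53.3% with TGACGTCA and 33.0% without in the richest bin, and in the poorest bin at 33.3% and 21.9%.

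**Figure D4:**
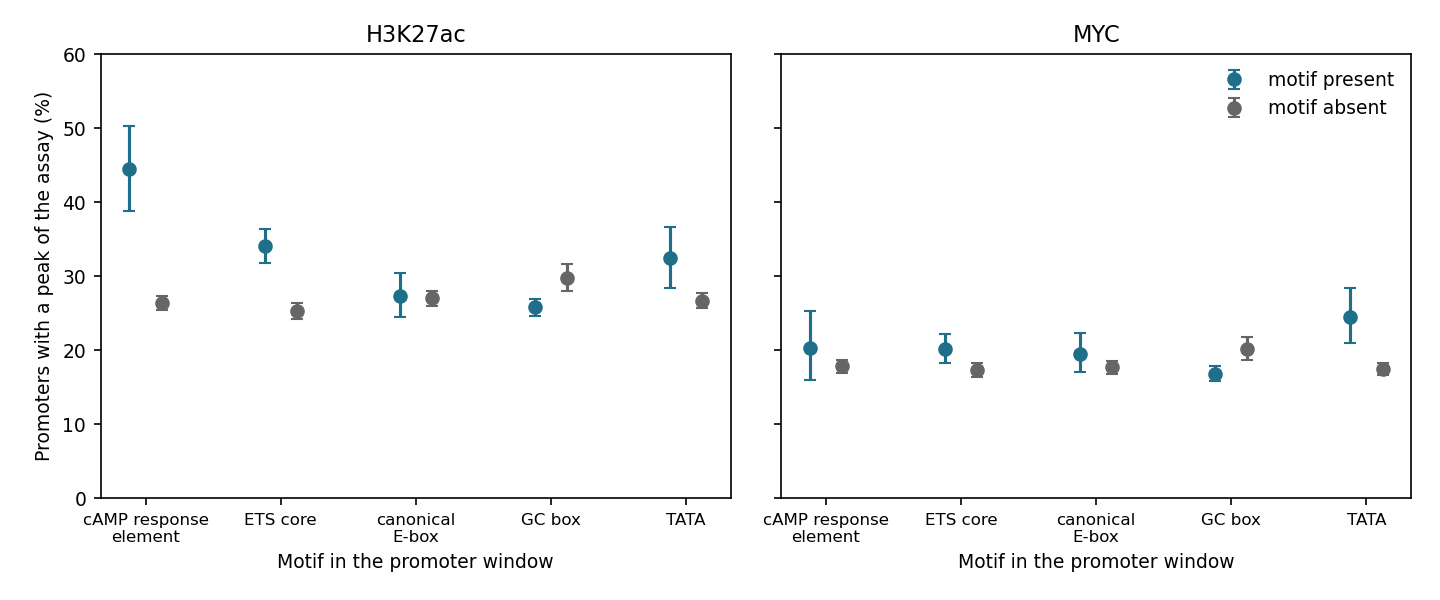
Share of H3K4me3 and open promoters with an H3K27ac peak and with a MYC peak (percent, with 95% confidence intervals), for promoters with and without each of 5 motifs. The widest gap was for TGACGTCA and H3K27ac, at 44.4% with the motif and 26.4% without.

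Gene groups were then read against the background of 5.13% of genes with all 4 assays. The gene lists were compiled from general knowledge, with earlier results of these data known, and no set test was run. Of 20 HSC markers, 15 had H3K4me3, 18 were open, 1 had H3K27ac and 1 had MYC, and none had all 4 assays. The prevailing pattern, in 14 of them, was H3K4me3 with open chromatin. The shares of genes with MYC and H3K27ac among genes with both H3K4me3 and open chromatin were each 0 of 14 for the HSC markers, with an upper bound of 23.2%, against 17.5% for MYC and 26.3% for H3K27ac over all genes. The bound lay above the MYC share and below the H3K27ac share of all genes. H3K27ac moved with H3K4me3 score, however. In the lowest-scoring bin of H3K4me3 and open ends it was at 371 ends and absent from 2645. In the highest-scoring bin it was at 1240 and absent from 1773. All of the 14 but Runx1, Mllt3 and Ctnnal1 scored below 243, the upper edge of the lowest bin. The H3K27ac share of all genes is thus not a matched background for them.

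Runx1, a transcription factor needed to form HSC, had the highest H3K4me3 score of these markers, 1042.63, with a library 1 score of 95.69 and no library 2 peak. Mllt3, a maintenance factor of HSC, had 424.36, 154.28 and 374.62 for H3K4me3 and ATAC-seq libraries 1 and 2. Ctnnal1, the gene of alpha-catulin, which is used as a reporter of HSC, had 364.65, 312.42 and 1224.42. The receptor tyrosine kinase gene Kit had 150.84, 70.55 and 779.53, and Mecom, which encodes the self-renewal factor EVI1, had 162.89, 133.23 and 469.32. Apart from Runx1, Mllt3 and Ctnnal1, the markers had H3K4me3 scores below 347, the median of all genes with H3K4me3 and open chromatin only.

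Other markers with H3K4me3 and open chromatin included Cd34, Fgd5, Tek, Procr, Pdzk1ip1, Hlf, Esam and Hoxb5, with H3K4me3 scores between 77.3 and 239.8. Slamf1, the gene of CD150, had H3K4me3 at 218.24 and no ATAC-seq peak. Tal1, a core transcription factor of blood, had H3K27ac at 76.75 with open chromatin, and Meis1, a cofactor of Hox proteins, had MYC at 53.88 with open chromatin. Gata2 and Cdkn1c were open only, and Ly6a, the gene of Sca-1, had no peak at either end. Starts inside a gene were not scored, so these calls do not show that every promoter of the gene was unmarked. A peak at an end does not by itself mark a cell type, since only 32.3% of all genes lacked one, and these counts describe the markers and do not establish the label HSC.

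Of 34 transcription factors of blood, 22 had H3K4me3, 4 had H3K27ac, 6 had MYC and 2 had all 4 assays, Tcf3 and Lyl1. Tcf3, which encodes the E proteins E12 and E47, scored 616.73 for H3K4me3, 152.4 for H3K27ac, 296.64 for MYC, and 153.79 and 873.14 for accessibility.

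Markers of other blood cells were open too, few had H3K27ac, and MYC differed between the lists. H3K4me3 was at 9 of 18 erythroid, 9 of 20 myeloid, 5 of 18 B-cell, 3 of 20 T- and NK-cell, 9 of 19 megakaryocyte and 7 of 20 stromal and endothelial markers. ATAC-seq library 2 had a peak at 13, 16, 8, 11, 16 and 13 of them in the same order. Erythroid, myeloid and B-cell markers had no H3K27ac and no MYC peak. Megakaryocyte markers had MYC at 5 of 19: Nfe2, F2rl2, Itga2b, Pf4, which encodes platelet factor 4, and Gp9, with scores from 70.92 to 128.61. T- and NK-cell markers had MYC at 3 of 20, Prf1, Lck and Cd3d, and Cd3d, a T-cell receptor subunit, had all 4 assays at its far end. Fermt3 was the only megakaryocyte marker with H3K27ac, and 1 stromal and endothelial marker had MYC. Over all genes MYC was at 10.3%. The megakaryocyte and the T- and NK-cell shares lay above that and the other lists below it, all on small numbers. Over all genes 66.5% had a library 2 peak, and the lists lay on both sides of that share, with B-cell markers lowest at 44.4% and megakaryocyte markers highest at 84.2%. The part of other cells in the sorted libraries was not tested.

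Replication-dependent histone genes, which supply histones for DNA replication, had the densest combination. Of 67, H3K4me3 was at 55, H3K27ac at 50 and MYC at 47, and 35 had all 4 assays (52.2%, 39.7 to 64.6%). These genes are clustered, with 54 of them on chromosome 13, and 31 separate MYC peaks and 31 separate H3K27ac peaks served the list. H3c6, a histone H3 gene, had scores of 379.48 for H3K4me3, 407.27 for H3K27ac, 266.66 for MYC, and 136.64 and 1083.2 for accessibility. H2bc4 followed with 284.08, 240.16, 139.29, 114.33 and 1200.6, and then H2ac24 and H4bc24, which share peaks of 309.94, 330.24, 134.95, 96.35 and 1133.1. The histone list had strong H3K27ac, with a median score of 139.94, and weak H3K4me3, with a median of 168, whereas H3K4me3 at all genes with all 4 assays had a median of 477. Their promoters with all 4 assays held TATAAA in 12 of 30, or 40.0%, against 9.24% of other promoters with all 4 assays. Between -40 and -20, where a TATA box lies, it was in 2 of the 30, or 6.67% (0.818 to 22.1%), against 10 of 833 of the others. H2ac21, shown above with TATAAA at -30, is 1 of these 2.

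Genes of protein synthesis also carried H3K27ac and MYC, to different extents. Of 83 cytosolic ribosomal protein genes, 78 had H3K4me3, 46 had H3K27ac (55.4%), 25 had MYC (30.1%) and 17 had all 4 assays. Rps14, of the small subunit, had an H3K4me3 score of 1177.19, H3K27ac of 147.52, MYC of 173.05 and accessibility scores of 123.55 and 1022.81. Rps29, Rps26 and Rpl41 followed, with MYC scores of 192.59, 147.32 and 81.53. The median H3K4me3 score of the list was 703, the highest of all lists but the olfactory receptors, for which it was not computed. Ribosomal protein genes share reads with processed pseudogenes elsewhere in the genome, and how the authors placed such reads is not given in the sources used here. Of 77 mitochondrial ribosomal protein genes, 29 had H3K27ac, 18 had MYC and 15 had all 4, led by Mrps18b, Mrpl47, Mrpl41 and Mrpl11. Mrps18b had MYC at 209.86 and H3K27ac at 260.29.

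Of 44 genes for factors that build ribosomes, 42 had H3K4me3, 15 had H3K27ac and 7 had MYC (15.9% of the 44). MYC was at 10.3% of all genes and at 17.5% of genes with H3K4me3 and open chromatin. Most members of each list in this paragraph had H3K4me3, so the 17.5% is the closer background for all of them. Among them only Nop58 had all 4 assays. Of 45 splicing factors, 26 had H3K27ac (57.8%), 18 had MYC (40.0%) and 10 had all 4, led by Snrpc, Rbm25, Prpf4 and Sf3a2. Of 36 proteasome genes, 12 had H3K27ac, 13 had MYC and 9 had all 4, led by Psmd3, Psmd5, Psma3 and Psmc1. Of 63 oxidative phosphorylation genes, 18 had H3K27ac, 13 had MYC and 8 had all 4, led by Ndufb5, which shares its peaks with Mrpl47, and Atp5l, Uqcrq and Cox8a.

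Lists of growth, division, chromatin, quiescence and interferon genes had MYC in 5 to 10 members each. Most of their members had H3K4me3, so genes with H3K4me3 and open chromatin are the closer background here too. Of 46 MYC target genes known from other cells, 18 had H3K27ac, 10 had MYC (21.7%) and 7 had all 4, led by Odc1, the rate-limiting enzyme of polyamine synthesis, Eif4a1, Nme1 and Eif2s1. Odc1 had scores of 664.55 for H3K4me3, 110.72 for H3K27ac, 115.31 for MYC, and 318.98 and 1416.13 for accessibility. Of 43 cell cycle genes, 13 had H3K27ac, 7 had MYC and 3 had all 4: Cdc45, Top2a and Gins2. Of 46 chromatin genes, 11 had H3K27ac, 6 had MYC and 4 had all 4: Kmt2d, Kdm5a, Rbbp5 and Setd1a. Of 32 quiescence genes, 10 had H3K27ac, 8 had MYC and 3 had all 4. This list shares members with the immediate early genes below. Among them are Klf6, Nr4a1, Btg2 and Egr1 of those with MYC, and Klf6, Nr4a2, Klf2 and Btg2 of those with H3K27ac. Of 40 interferon response genes, 39 had H3K4me3 and all 40 a library 2 peak. H3K27ac was at 7 and MYC at 5, against 14.6% and 10.3% of all genes. H3K4me3 and open chromatin without H3K27ac or MYC were at 29 of the 40. Over all genes this combination was at 7384, and H3K4me3 and open chromatin with H3K27ac, MYC or both at 1840, 854 and 1105. All the mice had received poly(I:C), so its effect on these genes was not tested.

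Of 34 mTOR pathway genes, 31 had H3K4me3, 11 had H3K27ac, 12 had MYC (35.3%) and 8 had all 4 assays. Mtor, the kinase whose floxed alleles these mice carry, was among them, and its start scored 155.44 for H3K4me3, 99.23 for H3K27ac, 221.16 for MYC, and 341.21 and 1418.45 for accessibility. Its MYC peak ranked 271 of 8774 while its H3K4me3 peak there was low in its list. Akt1s1, which encodes the mTORC1 inhibitor PRAS40, had a MYC score of 253.65, Rheb, the small GTPase that activates mTORC1, had 134.9, and Eif4ebp2, a translational repressor, had 125.34. The others were Pdpk1, Lamtor1, Lamtor2 and Rps6kb1.

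In the MYC network, Myc itself had H3K4me3 at 164.57 and accessibility of 142.26 and 441.64, no H3K27ac and no MYC peak at either end, and 5 distal open regions within 100 kb. Max, the shared partner, had H3K4me3 at 414.04 and no MYC peak. Of 17 network genes 5 had MYC: Mxd4 (167.48), Mnt (123.09, with all 4 assays), Mxd1 (61.99), Mxd3 (52.67) and Zbtb17 (50.26). Mxd1, Mxd3, Mxd4 and Mnt encode repressors that compete with MYC for MAX, and Zbtb17 encodes MIZ1, through which MYC represses genes. Mxi1, of the same family as Mxd1, and Mga, another partner of MAX, had no MYC peak. Mxd3 and Zbtb17 were close to the lowest MYC score in the list, 50.01.

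Immediate early genes, which respond within minutes to stimuli, had MYC at 17 of 30 (56.7%) and H3K27ac at 15 (50.0%), and 7 had all 4 assays at 1 end. Dusp1, a phosphatase that restrains MAP kinases, had 524.17 for H3K4me3, 117.36 for H3K27ac, 81.1 for MYC, and 176.71 and 608.64 for accessibility. Ier3, Zfp36l2 and Btg2 had MYC at 125.49, 122.39 and 63.34. Several of the strongest MYC peaks lay at the far end of short genes: Jun at 352.68, ranked 87 of 8774, and Fos at 329.83, ranked 99, while the H3K4me3 and H3K27ac peaks of Jun and the H3K4me3 peak of Fos were at the start. Jun, Fos, Jund, Egr1 and Runx1 were also among the 17 genes with a library 1 peak and no library 2 peak at their ends.

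Groups not used in blood formed the other extreme. Of 52 non-blood developmental factors, 3 had H3K4me3, none had H3K27ac or MYC, and 35 had a library 2 peak. Of 1105 olfactory receptor genes, 3 had H3K4me3, 4 had H3K27ac, 8 had MYC and 23 had a library 2 peak, and 1072 had no peak. By their fullest end, 33 developmental factors were thus open without H3K4me3, while most olfactory receptors were closed. The 33 include En1, which had an H3K4me3 peak of 56.49 at its other end.

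**Figure D5:**
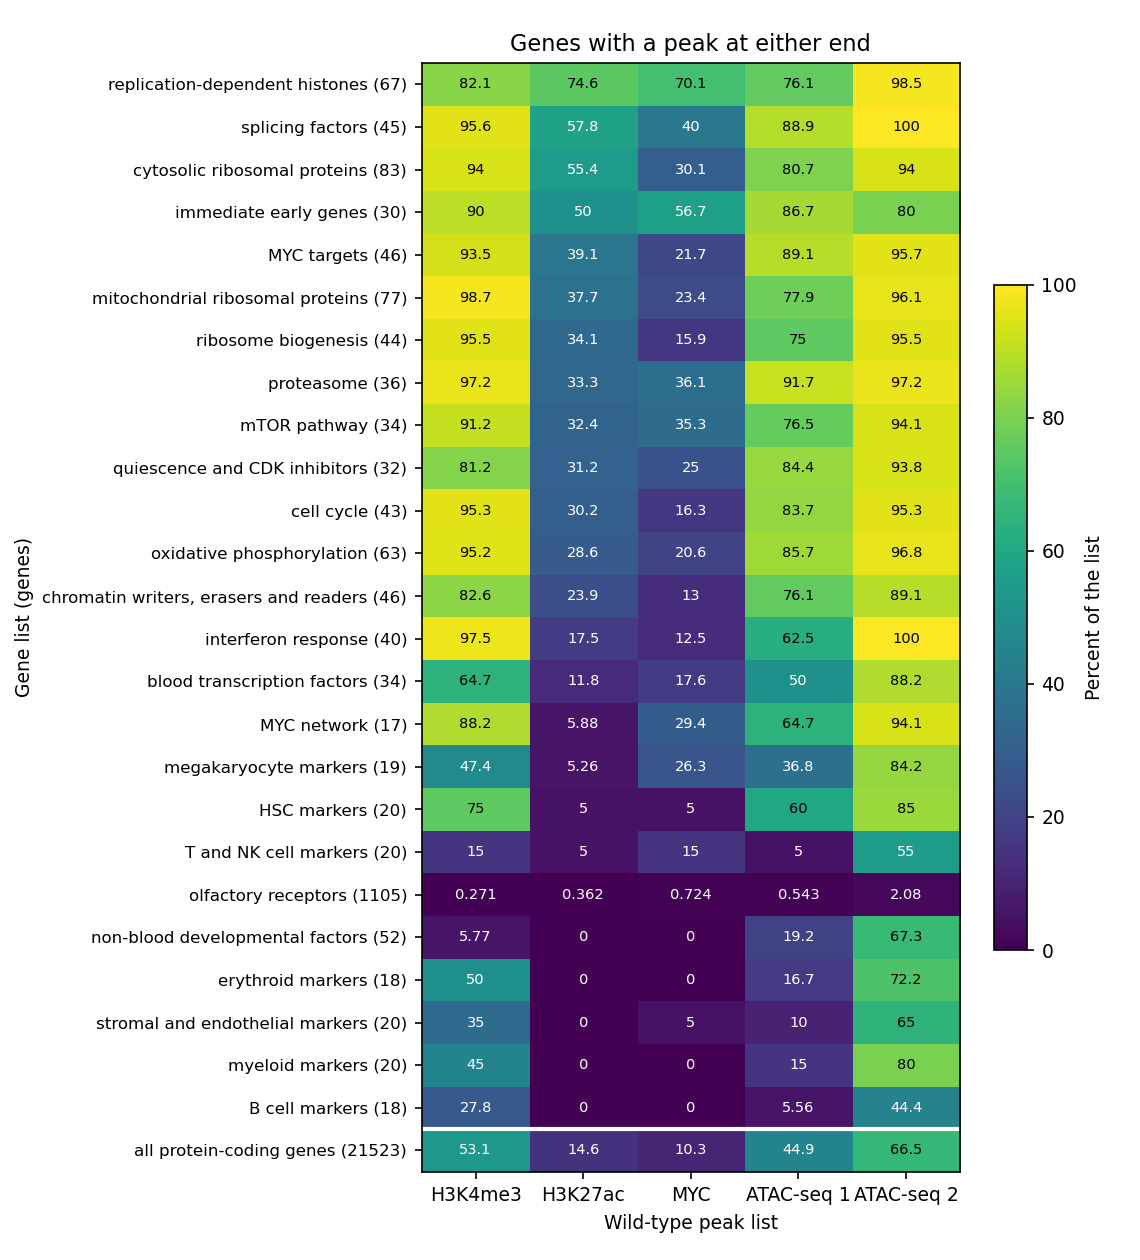
Share of genes (percent) that had a peak of each of the 5 lists at an end, for 25 gene lists and all protein-coding genes, ordered by H3K27ac. Replication-dependent histones stood at 74.6% for H3K27ac and 70.1% for MYC, and all genes at 14.6% and 10.3%.

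Genes of the X chromosome had fewer peaks in all lists. H3K4me3 was at 36.4% of 963 X-linked genes and 53.9% of 20560 autosomal genes, and MYC was at 2.08% and 10.7%. Among genes with H3K4me3 and open chromatin MYC was at 5.51% on X (3.35 to 8.47%) and 17.9% on autosomes (17.2 to 18.6%), and H3K27ac was at 15.1% and 26.7%. All 4 assays were at 8 X-linked genes (0.831%) and 1097 autosomal genes (5.34%). The sex of the mice is not given in the labels used here. All lists also held peaks on Y: 35 for H3K4me3, 108 for H3K27ac, 113 for MYC, and 13 and 40 for ATAC-seq. The number of X copies behind these values was not tested.

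The highest ranks differed between the assays. H3K4me3 was led by H3f3b, which encodes the replacement histone H3.3, with a score of 1469.26 at rank 7, also with MYC at 164.49 and H3K27ac at 81.4 but no ATAC-seq peak. Dusp2, which shares a peak of 1297.2 with Astl, Rps15 with 1290.1, Arpc5 with Rgl1 at 1278.71, Rpl5, Rps14, Rpl11 and Rps3 followed, so 5 of these 10 genes encode ribosomal proteins. H3K27ac was led by H3c6 with 407.27 at rank 29, then Ddit3, a stress-response factor, with Mbd6 at 369.42, Tmem167b at 332.84, the histone genes H2ac24, H4bc24 and H4c18 at 330.24, Zfp687 at 323.17, and Ermard with Tcte3 at 322.68. All 10 had all 4 assays.

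MYC was led by Lars2, the mitochondrial leucyl-tRNA synthetase gene, at 798.72 and rank 26, where the peak lay at its far end. Jun, Alyref2 at 347.44, Bod1 at 346.95, Gtf3c6 at 337.72, Fos, and Ccdc116 with Ydjc at 328.42 followed. Gtf3c6, a subunit of an RNA polymerase III factor whose promoter is printed above, had its single E-box at -56 inside the MYC peak. ATAC-seq library 1 was led by Ripk2 at 891.88, Zbtb20 at 831.95, Sp4 at 779.93, Zfp78 at 773.64, and Pdcd10 with Serpini1 at 773.44. Library 2 was led by Sp4 at 2641.17, Zbtb20 at 2504.2, Gsk3b at 2475.94 and Nr1d2, the circadian receptor REV-ERB beta, at 2338.11. Sp4, Zbtb20 and Nr1d2 were thus in the first 10 of both ATAC-seq libraries, and no gene was in the first 10 of 2 different assays.

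Ranks were shared weakly between assays. Spearman's rho over genes with both peaks was 0.76 between the ATAC-seq libraries (9419 genes), 0.35 between H3K4me3 and ATAC-seq library 2 (11177 genes) and 0.25 between H3K27ac and MYC (1153 genes). It was 0.058 between H3K4me3 and H3K27ac (2953 genes) and 0.021 between H3K4me3 and MYC (1972 genes). Genes that share a peak enter these values more than once, and genes are not independent replicates. Only 3 genes, among them Wbp11 and Ctla2a, ranked in the top 10% of every list, and 77 ranked in the top 25% of every list. Among genes with both peaks, a gene high in H3K4me3 was thus not regularly high in H3K27ac or MYC. Whether a peak was present did move with H3K4me3 score. In the lowest-scoring bin of H3K4me3 and open ends, H3K27ac was at 371 and absent from 2645. In the highest-scoring bin it was at 1240 and absent from 1773. At ends without H3K27ac, MYC was at 5.78% in the lowest-scoring bin and 13.8% in the highest.

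The top of every list was held in large part by regions away from genes. In all, 7 regions were in the top 1% of all 5 lists and none was at a gene end. The first, chr2:98666123-98667591, scored 3100 in all 5 lists, and chr9:35304993-35306004, chr12:3109453-3110484 and chr6:103648677-103649697, inside Chl1, were others. They held 5 of the 10 highest H3K4me3 peaks, 5 for H3K27ac, 6 for MYC, 6 for ATAC-seq library 1 and 4 for library 2. A score of exactly 3100 was held by 2 H3K4me3 peaks, 1 H3K27ac peak and 3 peaks in each of the other lists. Whether scores were capped there was not tested. A top rank in ChIP-seq of unlike targets and in ATAC-seq is a measured property of these regions, and its cause was not tested. Left out, they changed no count of genes.

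Away from gene ends, 59837 merged regions were found, and open chromatin alone made up 44099 of them (73.7%). H3K27ac alone was at 4091 regions and MYC alone at 3370. H3K4me3 with open chromatin was at 2928, and 31.0% of these were at other annotated starts. MYC with open chromatin was at 1630, H3K27ac with open chromatin at 1021, H3K27ac and MYC with open chromatin at 557, and all 4 assays at 366. In all, 2476 distal regions had H3K27ac and open chromatin. Unlike at genes, H3K27ac and MYC were often found without an ATAC-seq peak: 64.0% of distal H3K27ac regions and 56.1% of distal MYC regions were not open. Scores there were low. Median scores were 62.3 for H3K27ac alone and 60.1 for MYC alone, near the lowest scores in the lists, 50 and 50.01. Distal MYC peaks had a median of 76.2 where they overlapped ATAC-seq library 2 and 61.5 where they did not. Of distal MYC peaks, 3155 of 6887 overlapped open chromatin, or 45.8% (44.6 to 47.0%). These counts rest on ATAC-seq library 2: without it, 4486 distal regions were open only, 1309 had H3K27ac and open chromatin, and 25.4% of distal MYC peaks were open.

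MYC went with H3K27ac at distal sites as at genes. Among distal open regions without H3K4me3, MYC was at 557 of 1578 with H3K27ac, or 35.3% (32.9 to 37.7%), and at 1630 of 45729 without it, or 3.56% (3.40 to 3.74%). With H3K4me3 the shares were 40.8% with H3K27ac and 9.52% without. A peak of ATAC-seq library 1 moved with both. H3K27ac was at 17.4% of distal regions open in both ATAC-seq libraries, 12.7% of those open in library 1 only and 2.56% of those open in library 2 only, and MYC was at 21.4%, 14.3% and 2.72%. The share open in both libraries was 9.28% for open chromatin alone, 34.0% with H3K27ac, 67.9% with H3K27ac and MYC, and 85.0% with all 4 assays.

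The distal regions with the best mean ranks lay both inside genes and between them. H3K27ac with open chromatin was led by a region inside Sp100, a nuclear body gene, at chr1:85703151-85704574, with an H3K27ac score of 111.33 and accessibility of 232.9 and 1467.2. Regions inside Trak1 and Slc24a3 had H3K27ac at 117.12 and 137.6. H3K27ac and MYC with open chromatin included chr11:87442478-87444013 inside Tex14, with scores of 438.87 for H3K27ac, 299.71 for MYC, and 234.32 and 1284.95 for accessibility. A region at chr5:142920124-142921511, 12148 bp from Actb, the beta-actin gene, had 150.55, 297.5, 192.99 and 1303.43. The first of this combination, chr9:2999955-3005396, scored 1270.38 for H3K27ac and 2135.65 for MYC with its nearest gene, Alkbh8, 329835 bp away. It also scored 1211.9 and 1477.68 for accessibility, so it was high in every list but H3K4me3, where it had no peak. It begins below 3 Mb, the limit under which genes were left out. The cause of its scores was not tested. H3K4me3 with H3K27ac and open chromatin was led by regions at other annotated starts of Nfyc, Tcf25 and Zfp119b.

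Genes were also ranked by the number of distal open regions with H3K27ac and no H3K4me3 for which they were the nearest within 100 kb. Of all genes, 1223 had at least 1 such region (5.68%). Mvb12b and Tex14 had 5, and Cxcr4, the receptor that retains HSC in bone marrow, and Inpp5d, which encodes the blood phosphatase SHIP1, had 4. Lmo2, a core factor of blood formation, Irf1, Gab2 and Myh9 were among the genes with 3. Of immediate early genes 11 of 30 had one (36.7%), among them Zfp36l2 with 3, and of blood transcription factors 9 of 34 (26.5%), among them Lmo2, Erg, Ikzf1 and Etv6. Of HSC markers only Procr had one, though Runx1 had 21 distal open regions, Meis1 19 and Mecom 14. The number of distal open regions moved with this measure: 3.65% of genes with 1 to 2 open regions, 10.5% with 3 to 5, 20.7% with 6 to 10 and 37.3% with 11 or more had one with H3K27ac. At 6 to 10 open regions, 3 of 7 immediate early genes, 2 of 5 blood transcription factors and 0 of 5 HSC markers had one. At 11 or more, it was 3 of 3, 5 of 10 and 0 of 4 in the same order. At 3 to 5, it was 3 of 6, 1 of 11 and 1 of 2. These numbers are small, and all of them count regions as open by either library.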

How the data were processed

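Sequence reads of control HSC were turned into peak lists by the authors, 1 list per library, and 5 lists were used. Each row holds a peak's position, name and score, and this score is the authors' deposited value, with no stated scale. The peak names, per the file headers and rows, are of the form written by MACS. Per the submitters' processing notes, the build was mm10 and CASAVA was among the tools. Not given in the sources used here are the aligner, the peak caller's version and settings, any input control and any shift of ATAC-seq reads. The files give no read counts, so depth is unknown and sets no error here. A longer list can reflect a deeper library.

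Only peaks on autosomes 1 to 19 and on X were used. Y-linked peaks, 35 for H3K4me3, 108 for H3K27ac, 113 for MYC, 13 and 40 for ATAC-seq, were left out. Gene positions and promoters came from a RefSeq table of GRCm38.p6, and 108 genes with coordinates below 3 Mb, which lie on scaffolds, were left out. Regions were formed by merging peaks of all 5 lists that overlapped by at least 1 bp, and a region was distal when it met no gene end. Ranks were computed within a list. Overlaps were checked against bedtools 2.31.1 and on simulated data. Analyses used Python 3.11.15, pandas 2.3.3, numpy 2.4.6, scipy 1.17.1 and matplotlib 3.10.9. With 1 library per ChIP target, results are counts and shares with no test.

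The members and the 25 gene lists were chosen with earlier results of these data known. Of 670 listed gene names, 6 were not matched. Genes named were Mtor, Myc, the HSC markers, the 10 top genes per list, the 5 best by mean rank in each combination of at least 20 genes, up to 4 members per list with all 4 assays, and the 3 best regions per distal combination, without predicted genes. A few genes that this rule names are not reported here. Others, such as members of the MYC network, the megakaryocyte and immediate early lists and the genes with most distal regions, were chosen after their values were seen. Alternatives were the window, the overlap, the score threshold, list length, the definition of open, the start only, and leaving out either ATAC-seq library.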

Additional observations from a re-analysis of the deposited data

How the results depend on the processing

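Of 93 values under 13 alternatives, 28 moved. A count was taken to have moved when it differed by more than 1.5 times, and a share or the ratio when it left the counting interval of the reported value, which is a narrower bound. The ratio of MYC shares stayed above 1 throughout. No paired analysis was possible because the results come from no test and each ChIP target has 1 library. With only the peaks above each list's median score, 480 genes had all 4 assays, 1178 distal regions had H3K27ac and open chromatin, 18345 were open only, 24.8% of MYC peaks were at gene ends and 52.7% of distal MYC peaks were open. With lists of equal length, 8774 peaks each, 4148 genes had H3K4me3 and open chromatin only, 11042 had no peak, 844 distal regions had H3K27ac and open chromatin, 1474 were open only, 19.3% of distal MYC peaks were open, and the ratio of MYC shares with against without H3K27ac was 2.94. Where open meant a peak in both ATAC-seq libraries, the values were 1332 and 4094 distal regions, 24.8% of distal MYC peaks and a ratio of 3.28. Leaving out either ATAC-seq library gave 1309 to 2445 distal regions with H3K27ac and open chromatin, 4486 to 43914 open only, 25.4% to 45.2% of distal MYC peaks open and a ratio of 3.28 to 3.77. Windows of 500 bp and 2.5 kb gave 17.8% and 27.8% of MYC peaks at gene ends, 47.3% and 44.3% of distal MYC peaks open, and ratios of 4.09 and 3.25. An overlap of at least 50% of the shorter interval gave 19.9% at gene ends and 44.0% of distal MYC peaks open, and counting only known starts gave 19.9% at gene ends. Leaving out the 7 regions high in all lists, an alternative chosen after seeing the data, gave 2469 distal regions with H3K27ac and open chromatin and changed no count of genes.

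Unknown depth limits every comparison of list lengths, and no list shows what lay under its lowest score. Single ChIP libraries leave the spread between mice unmeasured. Gene ends stand in for promoters where the strand is unknown, and neighbouring genes share peaks.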
